A study of Mus musculus with 6 samples.

Results

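Klf2, Klf3, S1pr1, S1pr4, Ccr7 and Cd69 were followed in mouse CD8 T cells, a class of T lymphocyte that destroys infected and tumour cells. These 6 genes were taken by name, as KLF2, its relative KLF3, the homing and egress receptors linked to KLF2, and the egress antagonist CD69, out of 25654 identifiers with values. Aged cells came from wild-type female C57BL/6 mice of around 65 weeks, and young cells from wild-type female C57BL/6 mice of 6 weeks, with 3 libraries per group. In both groups the cells were isolated from the spleen, stimulated for 2 days with plate-bound antibodies to the T cell receptor beta chain (3 µg/ml) and CD28 (1 µg/ml) in interleukin 2 (10 ng/ml), moved to a new plate and kept in interleukin 2 (10 ng/ml) for 5 more days, so RNA came from cells activated in culture. Titles number the libraries as biological replicates, and nothing says whether each had a mouse of its own, so p-values measure only the spread between these libraries, which may be technical.

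KLF2 is a zinc finger transcription factor of resting T cells that switches on the genes T cells need to circulate through lymphoid organs. Among these is S1pr1, a receptor for the lipid sphingosine 1-phosphate (S1P) that lets T cells leave lymphoid tissue. Signals from the antigen receptor and from interleukin 2 lower KLF2 through PI3K and AKT, which keep the factor FOXO1 out of the nucleus, while the kinase ERK5 acts on Klf2 through MEF2 factors. CCR7 draws naive and central memory T cells into lymph nodes, and CD69, a surface lectin of recently activated cells, binds S1PR1 and takes it off the surface.

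The libraries were made with a kit that reads the 3' ends of polyadenylated transcripts, so a longer gene yields no more reads per transcript. Levels of different genes are set side by side on this ground only. How fully the 3' end of each gene was captured and counted was not measured. Values are CPM, the reads of a gene scaled to a common library total. Libraries held 1952552 to 2608553 reads in aged cells and 2300219 to 2785915 in young cells, so that 1 read stood for between 0.359 and 0.512 CPM. A count of 0 allows up to 3 reads, which is 1.15 to 1.54 CPM in an aged library and 1.08 to 1.30 CPM in a young one, for counting error only. The T cell label was checked against Cd3d, Cd3e, Cd3g, Cd2, Cd8a and Cd8b1, which summed to 1714 to 1900 CPM in aged libraries and 2262 to 2366 CPM in young ones, with all of them but Cd8a called lower, while Cd4 was at 0 to 0.384 CPM in every library. Of 7 B cell markers 5 were at 0 throughout (Ms4a1, Cd79a, Pax5 and Fcer2a among them), and the list summed to 0 to 1.53 CPM in aged and 2.51 to 9.99 CPM in young libraries, almost all of it Cd79b. Of 7 red cell and platelet markers 3 were at 0 (Hbb-bs, Pf4 and Ppbp), with sums of 1.15 to 4.71 CPM in aged and 10.0 to 22.3 CPM in young libraries. The most abundant of them, Hbb-bt, had 0 reads in every aged library and was at 5.22 to 11.1 CPM in young ones. Its log2 difference of -3.11 was the 4th lowest of all tested genes (limma adjusted p = 9.45e-06).

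The upstream stretch is shown for each of the 6 genes that had a window in the set of RefSeq promoters used here. KLF and MEF2 proteins are known to bind the motifs searched. The genes shown are Klf2, Klf3 and S1pr4, and the set held no window for S1pr1, Ccr7 or Cd69. Promoters were found for 3 of the 6 genes. Each is 250 bases before RefSeq's start of the gene (GRCm38.p6), read on the gene's own strand. Capitals mark CACCC or its reverse GGGTG, the core bound by KLF proteins, and the letters CTA and TAG set 4 bases apart, a loose form of the MEF2 site that reads the same on both strands. The Klf2 window lies at chr8:72318812-72319061 on the plus strand, the Klf3 window at chr5:64803271-64803520 on the plus strand and the S1pr4 window at chr10:81500138-81500387 on the minus strand.
Klf2 promoter: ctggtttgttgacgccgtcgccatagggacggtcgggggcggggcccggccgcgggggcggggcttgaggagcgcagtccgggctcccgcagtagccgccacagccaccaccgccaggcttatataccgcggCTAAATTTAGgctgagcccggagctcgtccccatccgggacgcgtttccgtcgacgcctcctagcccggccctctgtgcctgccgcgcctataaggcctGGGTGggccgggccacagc
Klf3 promoter: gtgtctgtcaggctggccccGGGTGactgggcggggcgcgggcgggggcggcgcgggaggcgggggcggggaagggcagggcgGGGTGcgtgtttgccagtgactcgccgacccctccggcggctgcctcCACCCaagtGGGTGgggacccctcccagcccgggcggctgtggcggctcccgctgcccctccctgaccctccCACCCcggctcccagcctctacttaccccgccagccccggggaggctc
S1pr4 promoter: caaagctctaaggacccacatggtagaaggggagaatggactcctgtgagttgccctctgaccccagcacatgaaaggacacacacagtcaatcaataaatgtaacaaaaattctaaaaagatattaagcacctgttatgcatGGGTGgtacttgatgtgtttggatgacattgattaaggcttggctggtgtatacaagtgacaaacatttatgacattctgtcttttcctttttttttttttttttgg
Klf2 held 1 match to the MEF2 form, starting 118 bases before the start, and 1 GGGTG starting 19 bases before it. Klf3 held 5 matches to the CACCC core, starting 230, 167, 120, 111 and 48 bases before its start, and S1pr4 held 1, starting 107 bases before. None of the 3 windows held GTAAACA, the core bound by FOXO proteins, on either strand. Among 32851 mouse promoter windows of this length, with 1 chromosome left out, 52% held the CACCC core, 3.20% the loose MEF2 motif and 3.17% the FOXO core. None of these matches overlaps another. GENCODE, whose positions are given for each gene here, starts Klf2 and Klf3 earlier than RefSeq does, so the Klf2 GGGTG and the Klf3 matches at 120, 111 and 48 lie inside the gene as GENCODE places it. A match is a description of these letters and not a measured site.

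With a pseudocount of 1, Klf2 and S1pr1 had the lowest log2 differences of all 10511 genes tested, and Ccr7 was the 14th lowest. These ranks were not taken at other pseudocounts. The pseudocount limits the fall of genes with 0 reads in every aged library, such as Hbb-bt, so the ranks may depend on it. Klf3 and S1pr4 fell too, by smaller amounts, and Cd69 ran slightly the other way without passing the test. All 6 genes passed the filter, a mean over the libraries of 1 CPM or more. By limma on log2(CPM + 1) with Benjamini-Hochberg adjustment over all tested genes, 5 of the 6 were called lower in aged cells at an adjusted p under 0.05 and 0 were called higher. Of all tested genes 12.5% were called lower and 16.2% higher, and 18.3% had every aged library below every young one. Cd69 alone had an unadjusted p under 0.05 with aged cells higher, in limma, edgeR and limma-voom but not in DESeq2, and none of these tools called it after adjustment. The median log2 difference of the 6 genes was -1.84, against 0.03 for all tested genes. In bulk libraries such as these, fewer cells that express a gene and less RNA per cell cannot be told apart.

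**Figure D1:**
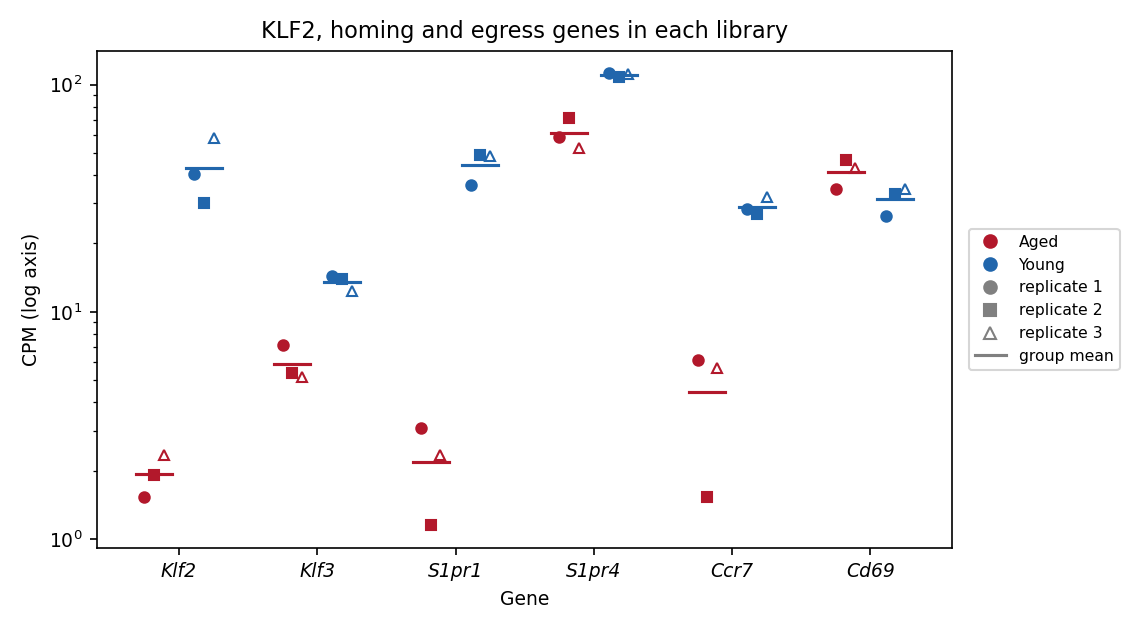
Level of each gene in each library, in CPM on a log axis, with aged libraries in red to the left of young libraries in blue, symbols for replicates and bars for group means. For Klf2, Klf3, S1pr1, S1pr4 and Ccr7 every aged library lies below every young one, while for Cd69 the aged libraries lie at 34.8 to 46.8 CPM and the young ones at 26.5 to 34.6 CPM.

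Klf2 (ENSMUSG00000055148, chromosome 8, 72319033 to 72321656, plus strand, GRCm38) was at 1.54, 1.92 and 2.35 CPM in aged replicates 1 to 3, against 40.4, 30.2 and 58.4 CPM in young replicates 1 to 3. Aged replicate 1 sat at the floor of a library and the other aged libraries close to it. Every aged library was far below every young one. Behind these values were 3, 5 and 5 reads in the aged libraries and 93, 84 and 152 in the young ones. The mean was 1.94 ± 0.409 CPM in aged and 43.0 ± 14.3 CPM in young cells (SD, n = 3 each), 22.2-fold lower, and the reads pooled over each group gave a ratio of 22.01 (exact 95% binomial interval 12.7 to 41.8, for counting error only). On the log2 scale Klf2 fell by 3.86 ± 0.27 (SE; limma adjusted p = 7.21e-09). Young libraries differed among themselves more than counting noise gives: the chi-square of the Klf2 reads was 12.8 per degree of freedom among the 3 young libraries, with the highest value in young replicate 3 and the lowest in young replicate 2, and 0.175 among the 3 aged ones. For comparison, pairs of libraries within a group had a chi-square of 1.72 to 2.90 per degree of freedom over all genes with 10 reads or more.

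Klf3, which encodes a related zinc finger factor known mainly as a repressor, was much less abundant than Klf2 in young cells and less reduced. It was at 7.17, 5.37 and 5.18 CPM in aged replicates 1 to 3, against 14.3, 14.0 and 12.3 CPM in young replicates 1 to 3. The groups did not overlap, and each was tight. Its mean was 5.90 ± 1.10 CPM in aged and 13.5 ± 1.10 CPM in young cells (SD, n = 3 each), and it fell by 1.08 ± 0.25 (SE; limma adjusted p = 0.00259) on the log2 scale. Klf3 (ENSMUSG00000029178, chromosome 5, 64803388 to 64832901, plus strand) is the least certain of the 6 in its counting, since exons of Gm20033 overlap it on the other strand and the end of at least 1 of its annotated transcripts shares 50 bases or more with 5 other genes.

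Klf2 and Klf3 were also set against each other inside each library. The within-library difference of Klf2 minus Klf3 on log2(CPM + 1), which does not depend on how libraries are scaled apart from the pseudocount, was -1.69, -1.13 and -0.88 in the aged libraries and 1.43, 1.05 and 2.16 in the young ones. Klf3 was thus the higher of both genes in every aged library and the lower in every young one. The change was -2.78 (exact two-sided permutation test, p = 0.1 and 0.1 after adjustment over the 3 gene pairs compared). With 3 libraries against 3, 0.1 is the smallest p this test can give.

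S1pr1 (ENSMUSG00000045092, chromosome 3, 115710433 to 115715072, minus strand) was at 3.07, 1.15 and 2.35 CPM in aged replicates 1 to 3, against 36.1, 48.8 and 48.4 CPM in young replicates 1 to 3. These are 6, 3 and 5 reads in the aged libraries, so aged replicate 2 is at the floor. The reads pooled over each group gave a ratio of 21.4-fold lower (exact 95% binomial interval 12.6 to 39.6). On the log2 scale S1pr1 fell by 3.87 ± 0.26 (SE; limma adjusted p = 7.21e-09). The range of S1pr1 over libraries overlapped that of Klf2 in both groups.

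The size of the Klf2 and S1pr1 differences depends on the pseudocount and the tool. They were -2.75 and -2.78 on the log2 scale with a pseudocount of 5, and -4.51 and -4.45 in DESeq2 on the whole reads recovered from the CPM steps. Both were called in all 18 alternatives tried.

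S1pr4 encodes another S1P receptor of lymphocytes and, unlike S1pr1, remained well above the floor in aged cells. It was at 58.9, 71.7 and 52.7 CPM in aged replicates 1 to 3, against 112, 108 and 111 CPM in young replicates 1 to 3. The young libraries agreed within counting noise (chi-square 0.107 per degree of freedom), while the aged ones were more spread (3.61). S1pr4 (ENSMUSG00000044199, chromosome 10, 81497747 to 81500132, minus strand) averaged 61.1 ± 9.68 CPM in aged and 110.4 ± 2.13 CPM in young cells (SD, n = 3 each), 1.81-fold lower, a fall of 0.85 ± 0.11 (SE; limma adjusted p = 1.05e-05) on the log2 scale.

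Set against S1pr4 in the same library, S1pr1 was far lower in aged cells. The within-library difference of S1pr1 minus S1pr4 was -3.88, -5.08 and -4.00 in the aged libraries and -1.61, -1.13 and -1.18 in the young ones. S1pr4 was thus the more abundant S1P receptor transcript in every library, by a wider margin in each aged one. The change of -3.01 had an exact two-sided permutation p of 0.1, the smallest possible here.

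Ccr7 (ENSMUSG00000037944, chromosome 11, 99144196 to 99155077, minus strand), the lymph node entry receptor, was at 6.15, 1.53 and 5.65 CPM in aged replicates 1 to 3, against 28.3, 26.9 and 31.9 CPM in young replicates 1 to 3. Aged replicate 2 stood below the other two aged libraries, with 4 reads against 12 and 12. Its log2 difference was -2.60 ± 0.31 (SE; limma adjusted p = 4.41e-06), and -2.12 without aged replicate 2. The pooled reads gave a ratio of 6.93-fold lower (exact 95% binomial interval 4.66 to 10.7). Aged replicate 2 was also the lowest aged library for S1pr1 and the highest for S1pr4 and Cd69.

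Cd69 (ENSMUSG00000030156, chromosome 6, 129267325 to 129275436, minus strand) was at 34.8, 46.8 and 42.8 CPM in aged replicates 1 to 3, against 26.5, 33.0 and 34.6 CPM in young replicates 1 to 3. The groups did not overlap, by a margin of under 1 CPM between aged replicate 1 and young replicate 3, and 22.5% of all tested genes did not overlap with aged cells higher. The mean was 41.5 ± 6.09 CPM in aged and 31.4 ± 4.28 CPM in young cells (SD, n = 3 each). Its log2 difference of 0.39 ± 0.15 (SE; 95% interval 0.07 to 0.71) did not pass after adjustment (limma adjusted p = 0.0624). It passed without aged replicate 1 (0.51, adjusted p = 0.029) and without young replicate 3 (0.46, adjusted p = 0.0492), and leaving out any other library gave adjusted p-values of 0.0882 to 0.256.

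**Figure D2:**
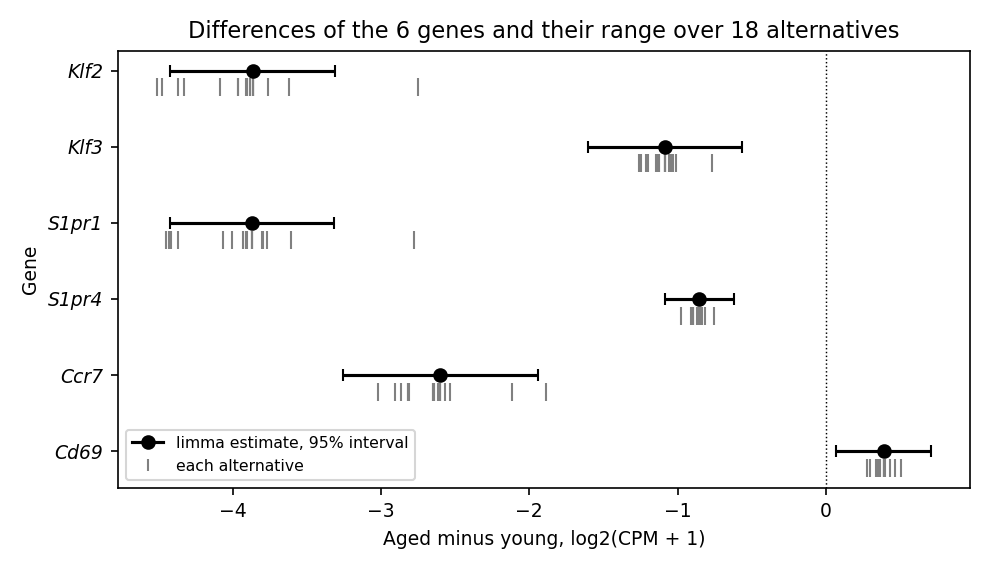
Difference of each gene, aged minus young on log2(CPM + 1). Black points and bars are the limma estimate and its 95% interval, and grey ticks are the estimates under the 18 alternatives. The ticks of Klf2 run from -4.51 to -2.75 and those of Cd69 from 0.28 to 0.51.

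The egress receptor and its antagonist stood in opposite order in the groups. The within-library difference of S1pr1 minus Cd69 was -3.14, -4.47 and -3.71 in the aged libraries and 0.43, 0.55 and 0.47 in the young ones. S1pr1 transcripts were the more frequent in every young library and Cd69 transcripts in every aged one. The change of -4.26 (exact two-sided permutation test, p = 0.1, adjusted p = 0.1) is made of the S1pr1 difference of -3.87 and the Cd69 difference of 0.39. CD69 acts on S1PR1 protein at the cell surface, which these data do not measure.

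**Figure D3:**
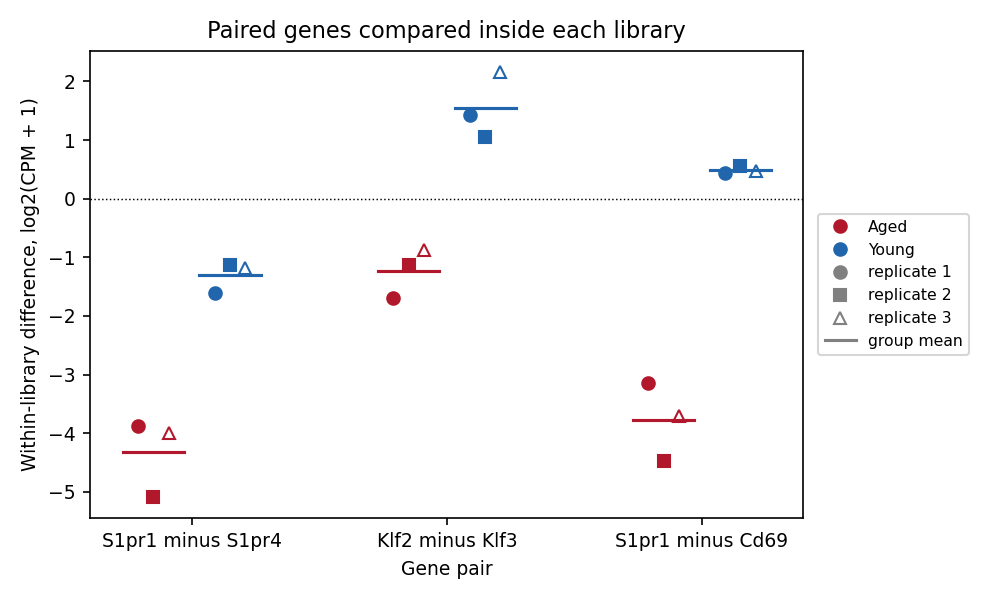
Within-library differences on log2(CPM + 1) for the 3 gene pairs, with aged libraries in red to the left of young libraries in blue and bars for group means. For Klf2 minus Klf3 and for S1pr1 minus Cd69 all aged libraries lie below 0 and all young ones above it.

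The order of the 6 levels differed between the groups. In aged cells it ran S1pr4, Cd69, Klf3, Ccr7, S1pr1 and Klf2 from high to low, and from Klf3 downward each gene's range overlapped that of the next. In young cells it ran S1pr4, S1pr1, Klf2, Cd69, Ccr7 and Klf3. There S1pr4 stood clear at the top and Klf3 clear at the bottom, and S1pr1, Klf2, Cd69 and Ccr7 overlapped from each one to the next.

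The other genes of the pathway were taken as 9 lists of 152 genes, of which 151 had an identifier and 119 passed the filter. Of these 119, 35 were called lower and 7 higher in aged cells by limma, or 29.4% and 5.88%, where 12.5% and 16.2% of all tested genes were called. Their median log2 difference was -0.20, against 0.03 for all tested genes. Leaving out aged replicate 3 or young replicate 1 gave 4 higher in place of 7. The counts of each list below are to be read beside the same 12.5% lower and 16.2% higher of all tested genes.

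**Figure D4:**
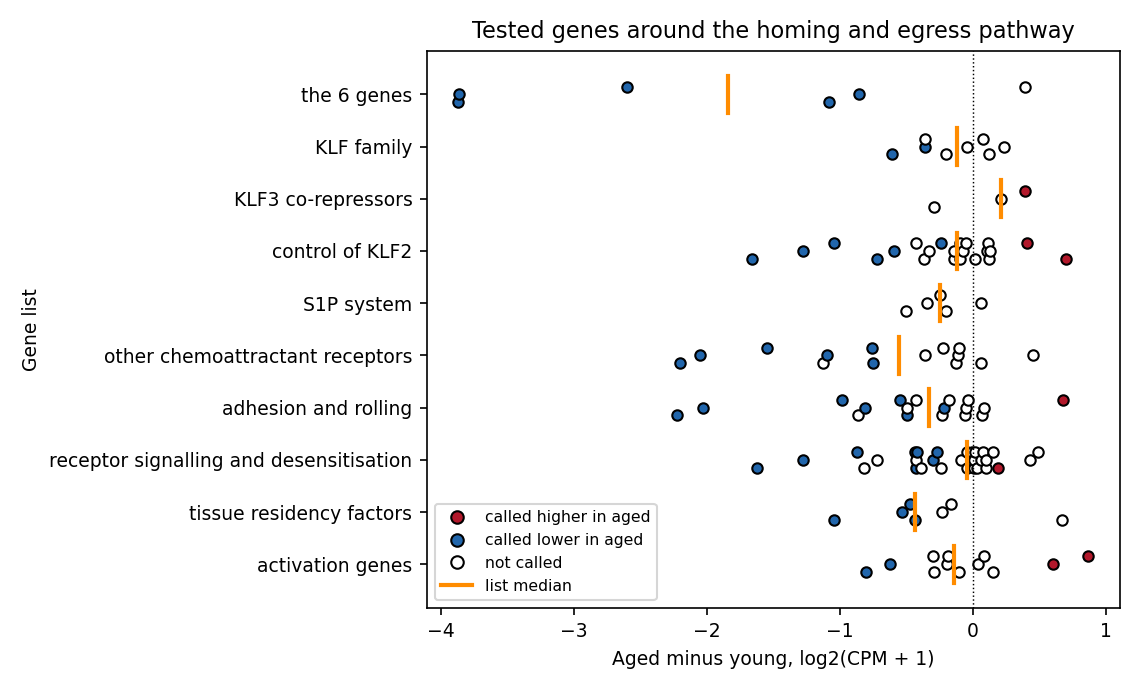
Difference of every tested gene in the pathway lists, aged minus young on log2(CPM + 1), below the 6 genes of the report. Filled points were called, blue for lower and red for higher in aged cells, and orange bars are list medians. The list medians lie between -0.56 for chemoattractant receptors and 0.21 for the KLF3 co-repressors, against -1.84 for the 6 genes.

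Upstream of KLF2, 6 of 22 tested genes were called lower and 2 higher, or 27.3% and 9.09% (median -0.12). Foxo1, the factor that drives Klf2, S1pr1 and Ccr7 in resting T cells, was at 56.8, 40.3 and 49.4 CPM in aged replicates 1 to 3 and 106.5, 103.0 and 93.0 CPM in young replicates 1 to 3, a fall of 1.04 ± 0.12 (SE; limma adjusted p = 3.21e-06) on the log2 scale. All aged values of Foxo1 lay below all young ones, as in 18.3% of all tested genes. Foxp1, a factor of T cell quiescence, had a log2 difference of -1.28 (limma adjusted p = 2.04e-06), with 79.7 to 149 CPM in aged and 251 to 292 CPM in young libraries, and its annotated 3' end is shared with 4 other genes, which leaves it uncertain. Pik3ip1, an inhibitor of PI3K, was 3.12-fold lower at 12.6 ± 5.77 CPM in aged and 39.3 ± 8.27 CPM in young cells (SD, n = 3 each). The genes called higher were Akt1, at 258 ± 8.67 CPM in aged and 195 ± 11.5 CPM in young cells, and Sgk1, at 70.2 ± 13.3 CPM in aged and 42.6 ± 6.35 CPM in young cells, both kinases that phosphorylate FOXO factors. Akt1, Sgk1 and Mapk7 are named outside the rule for named genes, after their values were seen. Pik3cd, the PI3K catalytic subunit of lymphocytes and the most abundant gene of the list without a call, was at 690 ± 33.9 CPM in aged and 681 ± 32.3 CPM in young cells (limma adjusted p = 0.848). Mapk7, which encodes ERK5, was at 10.9 ± 0.192 CPM in aged and 11.8 ± 1.96 CPM in young cells (log2 difference -0.10, 95% interval -0.57 to 0.38). Without knowledge of strand in the counting, Foxo1 and Pik3ip1 are also uncertain, since an annotated exon of another gene lies on the opposite strand of each.

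Among the other KLF genes 2 of 8 tested were called lower, or 25%, and 6 were not called (median -0.12). Klf13 was at 378 ± 15.7 CPM in aged and 576 ± 35.5 CPM in young cells, 1.53-fold lower (limma adjusted p = 9.76e-07), and Klf7 1.29-fold lower, with exons of Gm13748 and Gm26649 overlapping Klf7 on the opposite strand. Klf6, the most abundant KLF gene without a call, was at 434 ± 21.3 CPM in aged and 413 ± 36.2 CPM in young cells (log2 difference 0.07, limma adjusted p = 0.484). The KLF transcripts of highest level were thus Klf6 and Klf13 in both groups, well above Klf2. Of the 3 KLF3 co-repressor genes Ctbp1 was called higher, at 105.9 ± 7.71 CPM in aged and 80.3 ± 5.93 CPM in young cells (limma adjusted p = 0.00493), a call lost in DESeq2 (adjusted p = 0.0515), and Fhl3 did not pass (adjusted p = 0.163).

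Of the rest of the S1P system 0 of 5 tested genes were called in either direction (median -0.25), and S1pr2 and Sphk2 had an unadjusted limma p under 0.05, with 8 further genes below the filter. On the recovered reads edgeR, limma-voom and DESeq2 called 0 of the 5 as well, with 2, 2 and 0 at an unadjusted p under 0.05. S1pr2, Sphk2 and S1pr5 are named after their values were seen. S1pr2 was at 9.79 ± 2.51 CPM in aged and 14.1 ± 1.79 CPM in young cells (log2 difference -0.50, 95% interval -0.997 to -0.0068, limma adjusted p = 0.124). Sgpp1, which encodes an S1P phosphatase, was at 36.5 ± 5.67 CPM in aged and 41.8 ± 3.86 CPM in young cells (limma adjusted p = 0.335). S1pr5, the S1P receptor best known in natural killer cells and effector T cells, was at 0 in all aged libraries and at 0 to 1.30 CPM in young ones, at the limit of detection throughout.

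Adhesion genes had 7 of 18 tested lower and 1 higher, or 38.9% and 5.56% (median -0.33). Itga4 and Itgb7, the subunits of the gut-homing integrin alpha4 beta7, were 4.78-fold and 1.96-fold lower, Itga4 at 5.08 ± 0.526 CPM in aged and 24.3 ± 5.61 CPM in young cells and Itgb7 at 97.4 ± 22.04 CPM in aged and 190.7 ± 11.6 CPM in young cells (SD, n = 3 each). Exons of Cerkl overlap those of Itga4 on the other strand. Selplg, the ligand of P-selectin, was 1.41-fold lower at 303 ± 14.3 CPM in aged and 428 ± 6.45 CPM in young cells. Itgal, the alpha chain of LFA-1, was at 355 ± 46.3 CPM in aged and 399 ± 5.37 CPM in young cells and did not pass (limma adjusted p = 0.106). It passed with TMM and RLE scaling, edgeR and limma-voom, and without aged replicate 2 or aged replicate 3 (adjusted p = 0.0408 to 0.049). Its log2 difference was -0.18, and without aged replicate 1, the lowest library for this gene, it was -0.065 (adjusted p = 0.567).

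Besides Ccr7, 6 of 14 tested chemoattractant receptor genes were called lower, or 42.9%, and 8 were not called (median -0.56). Cxcr4, the receptor for the bone marrow chemokine CXCL12, was at 15.4, 12.7 and 8.47 CPM in aged replicates 1 to 3, against 42.2, 50.3 and 66.9 CPM in young replicates 1 to 3, with a log2 difference of -2.05 (limma adjusted p = 5.46e-07). Its aged values were below all young ones, as in 18.3% of all tested genes. Xcr1 was 3.09-fold lower, Cxcr6 2.06-fold lower at 108.4 ± 40.1 CPM in aged and 223 ± 2.69 CPM in young cells, and Ccr2 1.69-fold lower. Xcr1 is also the most abundant of the dendritic cell markers given below, and which cells its reads came from was not tested.

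In the signalling list that serves these receptors 8 of 30 genes were called lower and 1 higher, or 26.7% and 3.33% (median -0.05). Rasgrp2, which activates the small GTPase RAP1 ahead of integrins, was at 18.4, 19.2 and 19.3 CPM in aged replicates 1 to 3, against 50.9, 54.6 and 79.9 CPM in young replicates 1 to 3, a log2 difference of -1.62 (limma adjusted p = 5.07e-07). The aged values were nearly equal and the young ones spread upward in young replicate 3, which was also the highest young library for Klf2. Rgs10, a brake on G protein signalling, was 2.51-fold lower, and Dock2 and Rac2, which drive the migration of lymphocytes toward chemokines, 1.35-fold and 1.23-fold lower. Rasgrp2 and Dock2 have opposite-strand exon overlaps. Gnai2, the inhibitory G protein subunit to which S1PR1 and CCR7 couple, was at 1118 ± 26.0 CPM in aged and 1121 ± 45.4 CPM in young cells (limma adjusted p = 0.967). Grk2, the kinase that desensitises S1PR1 in blood, was at 179 ± 11.6 CPM in aged and 178 ± 14.1 CPM in young cells (log2 difference 0.01, 95% interval -0.17 to 0.18) and was named after its values were seen.

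Factors of tissue-resident T cells were called lower in 4 of 7 tested genes, or 57.1%, and not called in 3 (median -0.44). Prdm1 encodes BLIMP1, which with HOBIT represses Klf2, S1pr1 and Ccr7 in resident lymphocytes of mice, and it was at 58.0 ± 10.5 CPM in aged and 119.8 ± 10.0 CPM in young cells (log2 difference -1.04, limma adjusted p = 2.53e-06). Zfp683, which encodes HOBIT and is named after its values were seen, had 0 reads in all 6 libraries, which allows up to 1.54 CPM in any of them. Runx3 was at 437 ± 15.8 CPM in aged and 593 ± 29.7 CPM in young cells, Bhlhe40 was 1.39-fold lower and Notch2 1.46-fold lower. Exons of 0610040F04Rik overlap Bhlhe40 on the opposite strand and exons of Gm42820 overlap Notch2 on the same strand, so both are uncertain. Rbpj, the DNA-binding partner of NOTCH, did not pass (limma adjusted p = 0.0945), though it did in 7 of the 18 alternatives, 2 of them without aged replicate 2 and without young replicate 2, and its 3' end is shared with 2 pseudogenes. Of 12 tested activation genes, the group in which Cd69 is usually placed, 2 were called lower and 2 higher (median -0.14). That is 16.7% each way, near the 12.5% lower and 16.2% higher of all tested genes. Tfrc, the transferrin receptor, was at 121 ± 9.10 CPM in aged and 66.5 ± 10.5 CPM in young cells, and Myc at 39.6 ± 7.65 CPM in aged and 25.8 ± 6.35 CPM in young cells, a call that was lost in DESeq2 (adjusted p = 0.0773) and without any one of aged replicates 2 and 3 and young replicates 1 and 2 (adjusted p = 0.0613 to 0.093). Junb and Irf4, transcription factors induced by antigen receptor signals, were 1.54-fold and 1.78-fold lower, and exons of Prdx2 overlap Junb on the opposite strand. Tnfrsf9, the costimulatory receptor 4-1BB, was at 858 ± 27.0 CPM in aged and 921 ± 55.5 CPM in young cells (limma adjusted p = 0.210).

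**Figure D5:**
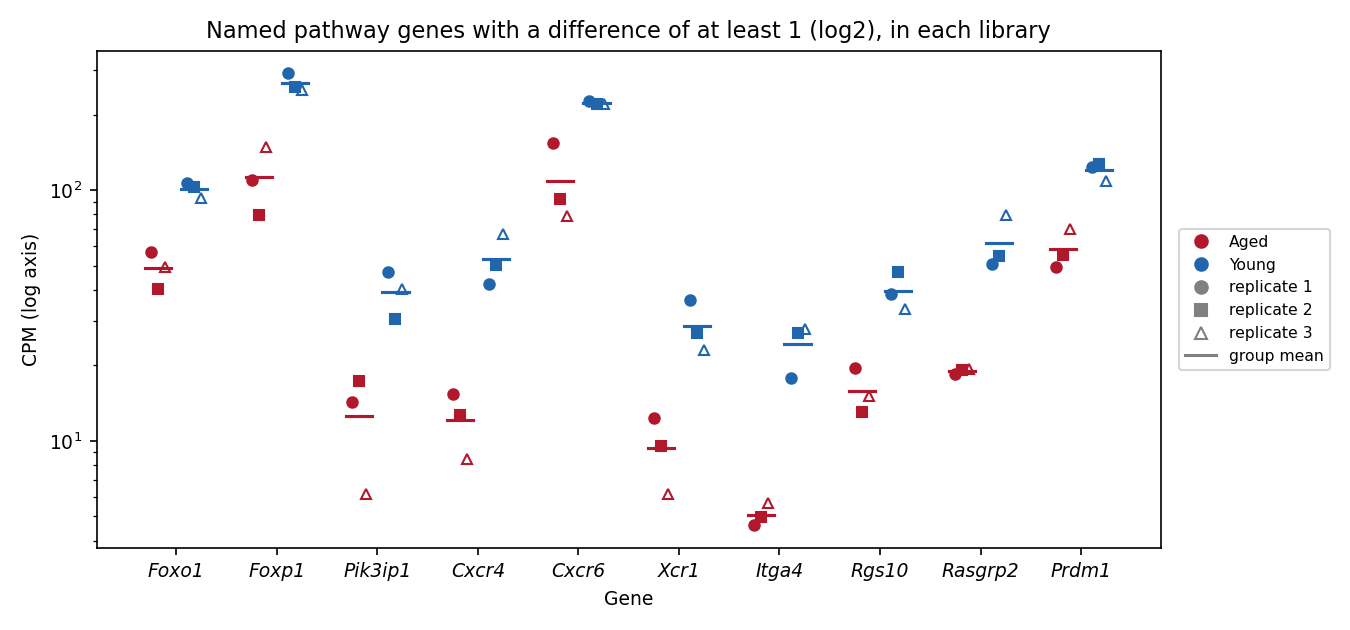
Level in each library, in CPM on a log axis, of pathway genes named here that were called with a difference of at least 1 on the log2 scale, with aged libraries in red to the left of young libraries in blue and bars for group means. For every gene shown all aged libraries lie below all young ones, which choosing them by that difference nearly fixes. Of all tested genes 18.3% had every aged library below every young one. Cxcr4, for example, lies at 8.47 to 15.4 CPM in aged and 42.2 to 66.9 CPM in young libraries.

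The genes most like each strongly changed member were found by the root mean square difference between log2(CPM + 1) profiles over the 6 libraries, each centred on its own mean, among the 8603 genes outside the 6 whose mean reached 5 CPM. A profile is mostly the step between the groups, so this is a description with no test. Napsa (0.69), Tgm2 (0.71) and Nrn1 (0.71) were nearest to Klf2, and S1pr1 was nearer than any of them, at 0.44. Klf2 and S1pr1 had the lowest log2 differences of all tested genes, and steps of like size bring profiles together. Other members were less near. Placed among the compared genes, Ccr7 ranked 11th and Klf3 200th in nearness to Klf2. In nearness to Ccr7, S1pr1 ranked 59th and Klf2 135th, and in nearness to Klf3, Klf2 ranked 8582nd. Nrn1 (0.33), Pygl (0.55) and Ifi203 (0.61) were nearest to S1pr1. Ripor2 (0.26), which encodes an inhibitor of the GTPase RHOA in T cells, Il18r1 (0.27), a subunit of the interleukin 18 receptor, and Ifi203 (0.31) were nearest to Ccr7. Ripor2 was at 24.1, 7.28 and 15.1 CPM in aged replicates 1 to 3, against 66.5, 67.8 and 70.7 CPM in young replicates 1 to 3. Like Ccr7 it was lowest in aged replicate 2, which follows from choosing it by its profile over these same libraries. Gab3 (0.05), Hilpda (0.07) and Arid5b (0.08) were nearest to Klf3, each about 2-fold lower in aged cells. Napsa, Tgm2 and Nrn1 overlap exons of an opposite-strand gene, Ifi203 overlaps Mndal on the same strand, and the end of a Gab3 transcript is shared with many genes, so the values of these 5 are uncertain.

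Levels of markers of other cells were as follows. Myeloid markers, with Lyz2, Adgre1 and S100a8 at 0 in every library, summed to 8.19 to 19.8 CPM in aged and 14.6 to 21.7 CPM in young libraries, led by Cd68. Dendritic cell markers, with Flt3, Siglech and Clec9a at 0, summed to 12.7 to 18.9 CPM in aged and 27.3 to 44.3 CPM in young libraries, led by Xcr1. Endothelial markers, of interest because endothelium is rich in KLF2, had Cdh5 and Tek at 0 and summed to 38.0 to 42.5 CPM in aged and 42.2 to 59.2 CPM in young libraries, led by Pecam1, which T cells also express. A Pecam1 3' end is shared with 11 other genes, so its values are uncertain. The 4 CD4 T cell markers summed to 11.3 to 18.9 CPM in aged and 19.6 to 23.7 CPM in young libraries, led by Zbtb7b. Zbtb7b is uncertain too, since exons of Gm15417 overlap it on the opposite strand and its 3' end is shared with Gm18856. Natural killer cell markers summed to 6687 to 7672 CPM in aged and 5536 to 5846 CPM in young libraries, nearly all of it Gzma, which CD8 T cells make, and Klra8 was at 0. The part of other cells in the differences of the 6 genes was not tested.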

How the data were processed

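The authors deposited 1 file per library with CPM values for 25655 Ensembl identifiers. The genome build was GRCm38 (mm10) per the submitters' processing notes, and libraries were QuantSeq 3' mRNA libraries per the labels' protocols. The aligner, the counting program, its strand setting and the gene models were not given in the sources used here. One identifier is blank in every file and was left out. Of the rest 25599 had a symbol in a table of gene names. The file recorded for aged replicate 2 names its column as replicate 3, and was taken as replicate 2 as recorded. Of the deposited CPM values 100% were whole multiples of 1 read within 0.001 reads, so whole reads were recovered. Libraries were grouped by their titles.

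The members, gene lists and tests were chosen with earlier results of these data known. The test was limma 3.58.1 (R 4.3.3) with an intensity trend, two-sided, with age as the sole term. It was run on log2(CPM + 1) of the 10511 genes whose mean reached 1 CPM. Differences are aged minus young on this scale, which understates changes of low genes, and folds are ratios of mean CPM. A gene was called at an adjusted p under 0.05, and the fit was tested on simulated data. On the recovered reads edgeR 4.0.16 called 1555 genes lower and 1443 higher. DESeq2 1.42.0 and limma-voom were run on them too. Gene pairs were compared by an exact permutation test (scipy 1.17.1). Other alternatives were pseudocounts of 0.1 and 5, no filter, a mean of at least 5 CPM, TMM, RLE and upper-quartile scaling, thinning to the smallest total, the replicate number as a block, and leaving out each library. Positions and exon overlaps come from GENCODE's annotation of GRCm38, and a 3' end was called shared where 50 bases within the last 200 of a transcript also occur in another gene's transcript. No molecular identifiers are described, so intervals and floors cover counting error only.

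Named genes were all 6 members, up to 4 called genes with the smallest p and the most abundant gene without a call from each pathway list, the 3 genes most like each member called with a log2 difference of at least 1, and the most abundant marker of each cell type. Any other gene was named after seeing its values, or as a listed marker. Some genes that the rule selects are not reported here.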

Additional observations from a re-analysis of the deposited data

How the results depend on the processing

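All 18 alternatives called the same 5 genes, Klf2, Klf3, S1pr1, S1pr4 and Ccr7, lower in aged cells. The number of the 6 genes called higher was 0, and 1 (Cd69) with the replicate block and in 2 of the 6 fits that left out a library (range 0 to 1). Nothing says whether the replicate numbers pair the libraries. Deviations from the group means correlated at 0.021, 0.00025 and 0.0028 for replicates 1, 2 and 3. So no shared deviation was seen, which cannot decide whether libraries of the same number were handled together. With the block 1336 genes were called lower and 1725 higher, against 1313 and 1701, and Cd69 had a log2 difference of 0.39 and an adjusted p of 0.0428. DESeq2 called 952 of all genes and 3 pathway genes higher, against 1701 and 7, and leaving out a library gave 4 to 7 pathway genes higher. Pik3cd, at 0.02, was -0.033 with TMM, -0.029 with RLE, -0.024 with upper-quartile scaling, -0.035 with edgeR, -0.034 with limma-voom, -0.030 with DESeq2, and -0.020 to 0.053 over the fits that left out a library. Gnai2, at -0.0042, was -0.038 to 0.018 over those fits. The cause of these shifts was not tested. Of the 36 named pathway genes and the 6 members, 35 kept their side of the threshold and their direction in all 18 alternatives. The differences inside each library kept their direction under pseudocounts of 0.1 and 5 and without any one library, S1pr1 minus S1pr4 at -3.50 to -1.97, Klf2 minus Klf3 at -3.17 to -1.98 and S1pr1 minus Cd69 at -4.77 to -3.13. Depth limits Klf2, S1pr1 and Ccr7 in aged cells, where libraries hold 3 to 12 reads of each.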
